A study of Rattus norvegicus with 47 samples.

Results

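Collagen chain genes were taken by name: every gene row of the lung tables named Col, a number, the letter a and a number. Of the 30045 gene rows in each table, 45 met that rule, and they stood for 44 gene names because Col1a2 was listed on 2 rows. The rule reads gene names and no measured value. Lungs of rats that had breathed crystalline silica were compared with lungs of rats that had breathed filtered air. At 1 day after exposure the largest change among these genes was a 1.91-fold rise of Col9a2. Col6a6 was also higher then, and Col6a1, Col6a2, Col8a2 and Col13a1 were slightly lower. At 6 months Col16a1 and Col17a1 were higher, by 0.59 and 0.49 on the log2 scale, and Col8a2 and Col11a2 were lower. The fibrillar chains Col1a1 and Col3a1 did not pass the test at either time.

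Collagen chains wind around each other into long helical proteins that are secreted and assembled outside the cell. The fibrillar types I, III, V and XI form the cables that give tissue its strength, type IV forms the sheet-like network of basement membranes, and type VI forms beaded filaments around cells. Other types decorate fibrils, anchor epithelium to its basement membrane or stay in the cell membrane. Fibroblasts and their relatives make most fibrillar collagen in the lung, and inhaled crystalline silica is known for silicosis, a scarring lung disease with collagen-rich nodules.

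The animals were male Fischer 344 rats, an inbred laboratory strain, weighing 250 to 300 g. They were described as healthy, and their age was not given in the sources used here. Whole-body inhalation lasted 6 h on each of 5 days, with filtered air for the controls and Min-U-Sil 5, a crystalline silica dust, at 15 mg/m3 for the others. At 1 day after exposure there were 6 air and 6 silica lungs, and at 6 months 5 air and 6 silica lungs, each library from a separately numbered rat. The labels name no exposure chambers or cages for these animals, so treatment and chamber cannot be told apart. The series also holds 24 blood libraries, which were not used here.

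Total estimated counts per lung library ran from 12.1 to 25.9 in units of 1000000 counts. Levels are given as CPM, the estimated counts of a gene per 1000000 counts of its library, where 3 counts, the limit that a count of 0 allows, came to between 0.116 and 0.249 CPM. CPM does not correct for gene length, so levels of different genes were not compared as amounts of RNA molecules. Sums over a list, and the share of 1 gene in such a sum, are shares of counts and depend on gene length. Markers of alveolar type 2 cells, the surfactant-making cells of lung, took 2.05 to 3.52% of the counts of every library. Heart muscle markers varied widely between libraries of every group, from 12.7 to 482 CPM in sum, and 1 of them, Nppa, had no counts. None of the 6 heart markers tested passed with edgeR at either time, and none had an unadjusted p under 0.05. Whether their RNA came from the lung itself or from tissue sampled with it was not tested. In whole tissue, fewer cells of a type and less RNA per cell cannot be told apart.

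At 1 day, 35 of the 45 rows had enough counts to be tested with edgeR's quasi-likelihood test, and 6 of them passed an adjusted p under 0.05. That is 17.1% of the tested collagen rows beside 14.1% of all 15331 genes tested. Col9a2 and Col6a6 were higher in silica lungs, where 8.39% of all genes were higher, and Col6a1, Col6a2, Col8a2 and Col13a1 were lower, where 5.72% of all genes were lower. At 6 months 4 of 34 tested rows passed, or 11.8% beside 16.2% of all 15309 genes. Col16a1 and Col17a1 were higher (9.84% of all genes) and Col8a2 and Col11a2 were lower (6.38% of all genes). The share of collagen rows called was thus near that of all genes at both times.

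The median log2 fold change of the tested collagen rows was -0.0397 at 1 day and 0.0087 at 6 months, beside -0.0024 and -0.0080 for all genes tested. A test of whether the silica effect differed between the times called 1 of 36 tested rows, Col16a1, which was higher at 6 months. Over all 15786 genes that test called 1.12% higher and 0.253% lower. It called 0 collagen rows lower with edgeR, while 6 rows in either direction had an unadjusted p under 0.05 and DESeq2 called 1 lower, Col9a2. Groups did not overlap for 3 rows at 1 day (Col9a2 above, Col13a1 and Col8a2 below) and for 2 rows at 6 months (Col16a1 and Col17a1 above). Over all genes tested, silica lungs lay wholly above air lungs for 5.3% and wholly below for 2.82% at 1 day, and for 5.75% and 5.79% at 6 months.

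**Figure D1:**
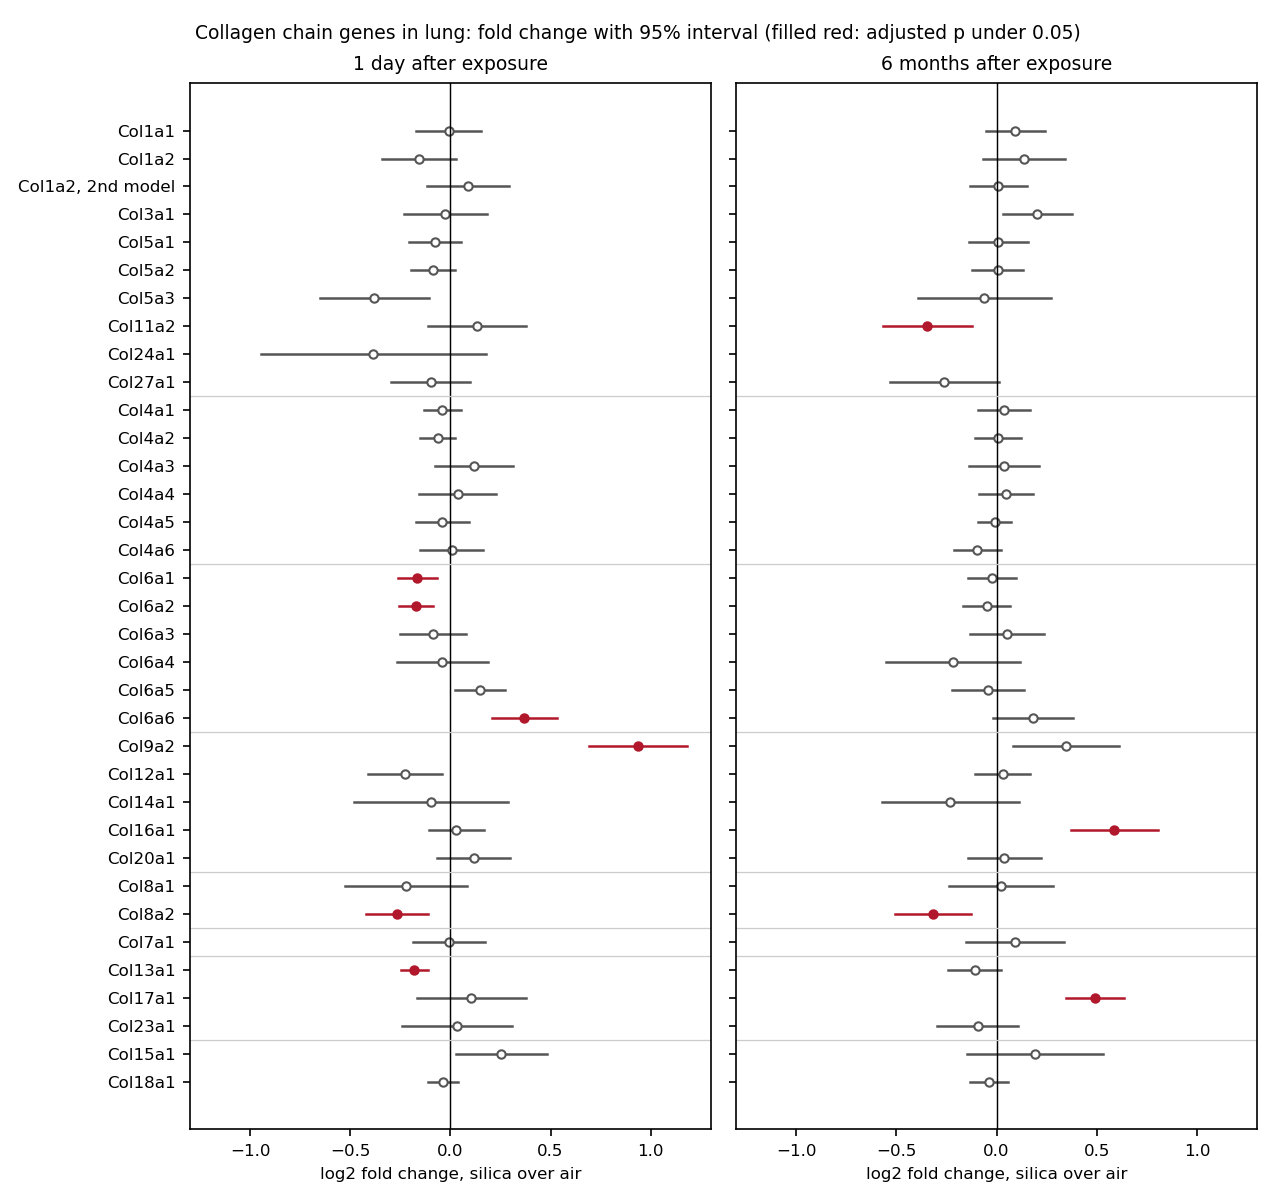
Log2 fold change of silica over air (x axis) for each tested collagen chain gene (y axis), at 1 day and at 6 months, with 95% intervals; filled red points have an adjusted p under 0.05. Most points lie near 0, Col9a2 stands at 0.94 at 1 day, and Col16a1 and Col17a1 stand at 0.59 and 0.49 at 6 months.

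All collagen rows summed took well under 1% of the counts of each library. The lowest, median and highest shares at 1 day were 0.583%, 0.617% and 0.654% in air lungs and 0.531%, 0.604% and 0.634% in silica lungs. The 5 air lungs of 6 months had 0.498%, 0.550%, 0.505%, 0.526% and 0.491%, and the silica lungs had 0.472%, 0.517% and 0.587%. The ranges of air and silica lungs overlapped at both times. The air lungs of 6 months all stood below those of 1 day, and time, age and table of origin cannot be told apart there, so that difference was not tested.

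Col1a1 and Col1a2 encode the chains of type I collagen, the main fibril of scar tissue, and Col3a1 encodes type III, which shares its fibrils. Col1a1 stood at 223, 241 and 259 CPM (lowest, median, highest) in air lungs and at 204, 244 and 276 CPM in silica lungs at 1 day. In the 6-month table the 5 air lungs had 197, 193, 175, 155 and 173 CPM and the silica lungs 162, 184 and 205 CPM. The groups overlapped almost entirely at both times. The fold change of Col1a1 was 0.994 at 1 day, with a 95% interval from 0.889 to 1.11, and 1.07 at 6 months, from 0.963 to 1.18.

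Col3a1 stood at 865, 948 and 1150 CPM in air and 765, 1002 and 1112 CPM in silica lungs at 1 day. The air lungs of 6 months had 639.6, 786, 703, 683 and 663 CPM and the silica lungs 675, 770.0 and 893 CPM. Silica lungs thus lay somewhat higher at 6 months, within overlapping ranges. The log2 fold change was -0.03 ± 0.10 (SE) at 1 day and 0.20 ± 0.08 at 6 months, where edgeR gave an adjusted p of 0.101. In silica lungs at 1 day the rats numbered 43 and 48 had the lowest Col1a1 (204 and 205 CPM) and the lowest Col3a1 (775 and 765 CPM) of all 12 lungs of that time.

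Col1a2 was listed as 2 gene models, and the estimated counts divide its reads between them, so each row alone is uncertain. At 1 day the models had opposite signs, -0.16 ± 0.09 and 0.09 ± 0.10 on the log2 scale, and neither passed. Summed, Col1a2 stood at 359.7, 384 and 416 CPM in air and 302, 387 and 407 CPM in silica lungs at 1 day. At 6 months the 5 air sums were 309, 318, 308, 293 and 279 CPM, and the silica sums 275, 305 and 359 CPM. The sum changed by -0.05 ± 0.07 at 1 day and 0.07 ± 0.07 at 6 months, and passed at neither time (edgeR adjusted p 0.689 and 0.481).

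Type V and XI chains sit inside fibrils and limit their width. Col5a1 changed by -0.08 ± 0.06 at 1 day and 0.01 ± 0.07 at 6 months, and Col5a2 by -0.09 ± 0.05 and 0.01 ± 0.06, with no call. Col5a3 stood at 8.81, 11.0 and 13.4 CPM in air and 6.56, 8.79 and 10.7 CPM in silica lungs at 1 day. Its log2 fold change of -0.38 ± 0.13 missed the threshold with edgeR (adjusted p 0.0627) and passed it with DESeq2, and it was -0.06 ± 0.15 at 6 months. Col27a1 (-0.10 ± 0.09 and -0.26 ± 0.13) and Col24a1 at 1 day (-0.38 ± 0.26) also did not pass.

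Col11a2 was the fibrillar chain that passed, at 6 months. Its 5 air lungs had 6.491, 7.43, 5.52, 6.15 and 6.87 CPM, and the silica lungs 4.14, 4.92 and 5.90 CPM. Only the highest silica lung, of rat 61, reached into the air range. The log2 fold change was -0.34 ± 0.10 with an edgeR adjusted p of 0.0391, and it was 0.13 ± 0.12 at 1 day, not called. The 6-month call was lost without the filter on low counts (adjusted p 0.0835) and in 9 of the 11 fits that left out 1 library, all but those without air rat 52 or silica rat 61 (adjusted p of lost calls 0.0523 to 0.0923).

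**Figure D2:**
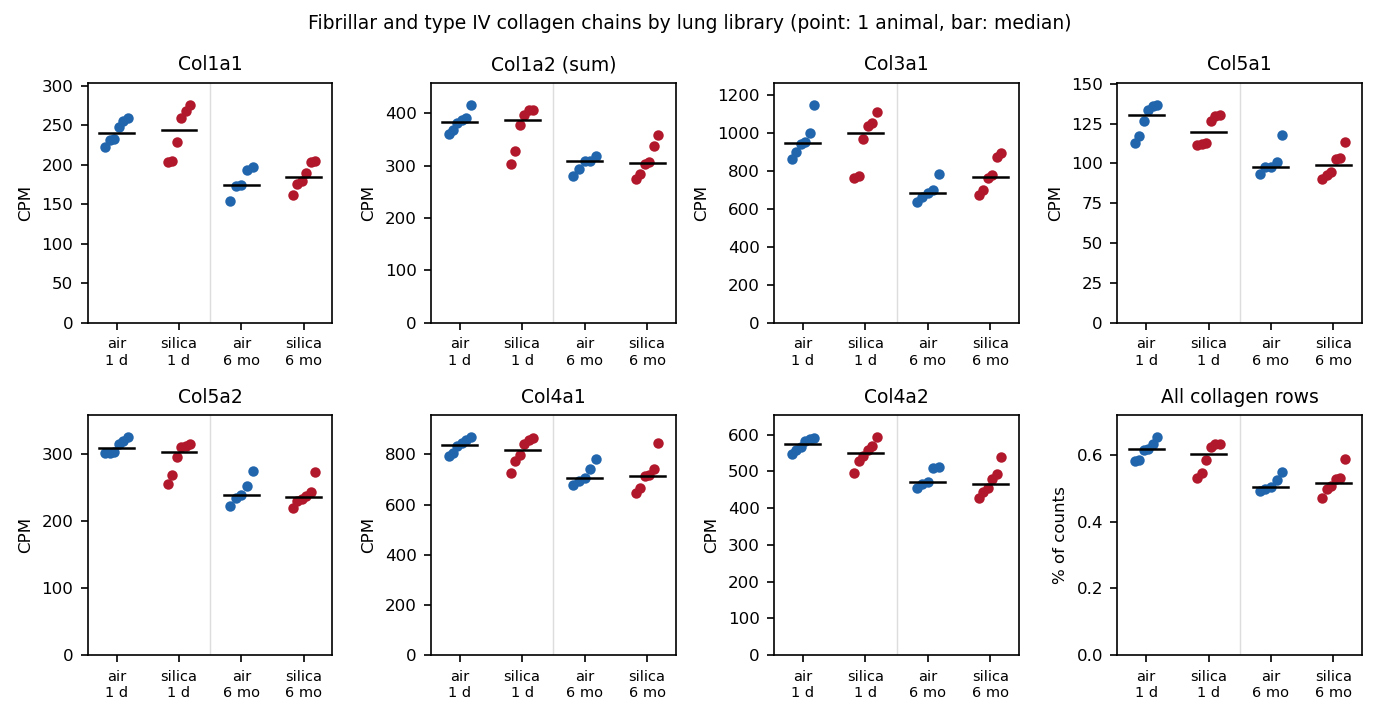
CPM of the main fibrillar and type IV chains (y axis; Col1a2 as the sum of its 2 models) and the percent of counts in all collagen rows (last panel), 1 point per rat, bars at the median, for air and silica lungs at both times. Air (blue) and silica (red) points overlap in each panel within each time.

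Of the 6 type IV chains none passed the edgeR test at either time, and none had an unadjusted p under 0.05. Col4a1 and Col4a2, the chains of every basement membrane, changed by -0.04 ± 0.04 and -0.06 ± 0.04 at 1 day and by 0.04 ± 0.06 and 0.01 ± 0.05 at 6 months. Their 95% intervals at 6 months ran from 0.938 to 1.12-fold and from 0.929 to 1.09-fold. Col4a3 and Col4a4, chains of thicker basement membranes such as that of the alveolus, changed by 0.12 ± 0.09 and 0.04 ± 0.09 at 1 day and by 0.04 ± 0.08 and 0.05 ± 0.06 at 6 months. Col4a5 and Col4a6 changed by -0.04 ± 0.06 and 0.01 ± 0.07 at 1 day and by -0.01 ± 0.04 and -0.10 ± 0.05 at 6 months.

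Col4a1 and Col4a2 lie head to head and start from 1 shared stretch of DNA. In the RefSeq promoter table of build GRCr8 it spans 76 bases, chr16:84885521-84885596, on the plus strand. It is shown because the levels of both genes moved together from rat to rat, as given further on. Capitals mark a GC box (GGGCGG, here on the other strand as CCGCCC), a short motif of many promoters.
Col4a1 and Col4a2, between the starts: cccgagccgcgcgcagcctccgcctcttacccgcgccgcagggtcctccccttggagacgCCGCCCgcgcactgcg
Both strands were searched for the GC box, for CCAAT and for TATAAA in the 250 bases before each gene's start, with overlapping matches of a motif allowed. A GC box was present in 19 of the 35 collagen genes whose promoter was in the table (54.3%), beside 32.4% of 27457 rat promoters of that length. CCAAT was present in 11 of 35 (31.4%, beside 34.3%) and TATAAA in 4 of 35 (11.4%, beside 13.1%).

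Type VI filaments are built from Col6a1, Col6a2 and another chain, which can be Col6a3, Col6a4, Col6a5 or Col6a6. At 1 day Col6a1 stood at 342, 382 and 407 CPM in air and 314, 339 and 358 CPM in silica lungs. Col6a2 stood at 349, 389 and 399 CPM in air and 318, 339 and 354 CPM in silica lungs. Both were lower in silica lungs by about the same amount, with 3 silica lungs (Col6a1) and 4 silica lungs (Col6a2) below the lowest air lung. The log2 fold changes were -0.17 ± 0.05 (Col6a1, edgeR adjusted p 0.0234) and -0.17 ± 0.04 (Col6a2, 0.00919). The Col6a1 call was lost without silica rat 43 (adjusted p 0.0541) or silica rat 48 (0.0591).

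Of the alternative partners, Col6a6 was higher in silica lungs at 1 day, opposite to Col6a1 and Col6a2. It stood at 30.1, 37.1 and 43.1 CPM in air and at 42.8, 48.0 and 54.6 CPM in silica lungs. Only the lowest silica lung, of rat 43, was not above every air lung. Its log2 fold change was 0.37 ± 0.08 (edgeR adjusted p 0.00434). Col6a6 overlaps the ribosomal protein gene Rpl29 in RefSeq's gene order, and Rpl29 itself changed by 0.02 ± 0.05 (not called). Col6a3 (-0.09 ± 0.08), Col6a4 (-0.04 ± 0.11) and Col6a5 (0.15 ± 0.06) did not pass at 1 day.

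At 6 months none of the 6 type VI chains was called with edgeR, and none had an unadjusted p under 0.05. Col6a1 and Col6a2 changed by -0.02 ± 0.06 and -0.05 ± 0.05, and Col6a6 by 0.18 ± 0.09. Whether these effects differed from those at 1 day was tested, and the differences did not pass (edgeR adjusted p 0.379, 0.425 and 0.555).

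Type IX collagen decorates the fibrils of cartilage and is made of Col9a1, Col9a2 and Col9a3. Col9a2 gave the largest change of the tested collagen rows. At 1 day it stood at 3.52, 4.85 and 5.51 CPM in air and at 7.81, 9.08 and 10.04 CPM in silica lungs, so every silica lung exceeded every air lung. The log2 fold change was 0.94 ± 0.11 (edgeR adjusted p 8.06e-05), or 1.91-fold with a 95% interval from 1.62 to 2.27. By 6 months the 5 air lungs had 5.31, 4.29, 4.95, 3.95 and 5.48 CPM and the silica lungs 4.90, 5.80 and 6.95 CPM. That smaller difference of 0.35 ± 0.12 missed the threshold (adjusted p 0.0723) but passed without silica rat 61 (0.0444). The change between times, -0.59 ± 0.17, missed it with edgeR (adjusted p 0.0854) and passed with DESeq2 (0.0437).

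The other type IX chains and Col2a1 were at or near 0 in these lungs, whereas Col11a2, a chain of the type XI collagen of cartilage, was measured in every lung as given above. Col9a1 never exceeded 0.226 CPM and Col9a3 ran from 0.0753 to 0.575 CPM over the 23 libraries. Col2a1, the fibrillar collagen of cartilage, never exceeded 0.136 CPM and had no counts in most libraries. Of the 11 cartilage markers found, Acan, Epyc, Matn1 and Matn3 were at or below the limit of a 0 count in every library. The summed markers were 58.7 to 63.4 CPM in air and 54.0 to 58.7 CPM in silica lungs at 1 day, and of the 4 tested, 1 was lower (Matn4). Most of that sum was Matn4 (medians 39.15 CPM in air and 35.18 CPM in silica lungs) and Sox5 (15.9 and 16.4 CPM). The sum thus mainly follows these genes and not the list as a whole. The sequence before the Col9a2 start is shown because its gene changed most, and it holds none of the 3 motifs searched. It is taken from RefSeq, GRCr8, chr5:139892548-139892797, plus strand, 250 bases.
Col9a2, before the start: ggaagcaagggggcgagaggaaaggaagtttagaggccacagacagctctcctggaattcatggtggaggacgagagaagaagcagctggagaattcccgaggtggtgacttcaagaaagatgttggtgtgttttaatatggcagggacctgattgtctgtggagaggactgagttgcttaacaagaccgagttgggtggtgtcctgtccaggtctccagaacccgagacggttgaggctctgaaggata
No match says only that these letters are not in this window.

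Col16a1 encodes a chain of a small collagen found on fibrils and near basement membranes. At 1 day it did not differ beyond the spread, with 107, 123 and 134 CPM in air and 114, 120.4 and 136 CPM in silica lungs. At 6 months the 5 air lungs had 96.0, 105.5, 98.1, 88.2 and 103 CPM, and the silica lungs 113, 147.5 and 169.6 CPM. Every silica lung then exceeded every air lung. The log2 fold change was 0.03 ± 0.06 at 1 day (not called) and 0.59 ± 0.10 at 6 months (edgeR adjusted p 0.00196), a 1.504-fold rise with a 95% interval from 1.29 to 1.75. The difference between the times was 0.56 ± 0.12 (adjusted p 0.0188). Its neighbour Pef1 was not called at either time (-0.05 ± 0.05 and -0.09 ± 0.05).

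Other fibril-associated chains bind to or link fibrils. Col12a1 changed by -0.23 ± 0.09 at 1 day (adjusted p 0.0958) and 0.03 ± 0.06 at 6 months. Col14a1 changed by -0.10 ± 0.18 and -0.23 ± 0.16, with wide ranges in every group. Col20a1 changed by 0.12 ± 0.08 and 0.04 ± 0.08. Col19a1 and Col22a1 had too few counts to be tested within either time.

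Col17a1 encodes the membrane-spanning collagen of hemidesmosomes, which fasten epithelial cells to their basement membrane. At 1 day it stood at 30.3, 32.8 and 43.6 CPM in air and 28.2, 35.2 and 46.6 CPM in silica lungs, with full overlap. At 6 months the 5 air lungs had 29.0, 30.8, 29.3, 24.5 and 32.4 CPM and the silica lungs 35.9, 41.1 and 41.6 CPM. All 6 silica lungs were above all 5 air lungs. The log2 fold change was 0.11 ± 0.13 at 1 day and 0.49 ± 0.07 at 6 months (edgeR adjusted p 5.47e-04). The difference between the times, 0.39 ± 0.16, did not pass (adjusted p 0.267). Its neighbours Slk (0.04 ± 0.03) and Sfr1 (0.04 ± 0.04) were not called at 6 months.

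Markers of epithelial cells moved with Col17a1 in part. At 6 months 7 of 8 alveolar type 2 markers were higher in silica lungs, and their sum ran from 20477 to 25529 CPM in air and from 29228 to 35230 CPM in silica lungs. Of 8 alveolar type 1 markers 3 were lower and none was higher (8261 to 9065 CPM against 6864 to 7854 CPM). Of the basal and airway markers, none of 4 tested passed at 6 months with edgeR, and 1, Foxj1, had an unadjusted p under 0.05 (-0.33 ± 0.13). Krt5, the defining keratin of basal cells, stayed between 0 and 0.234 CPM over all libraries. The summed list ran from 5039 to 7517 CPM in air and 3925 to 5641 CPM in silica lungs. Nearly all of that sum was the airway gene Scgb1a1 (4977 to 7418 CPM and 3891 to 5587 CPM), so the sum does not measure basal cells. The part of these cell types in the Col17a1 result was not tested.

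The sequence before the Col17a1 start is shown because this gene was higher at 6 months in each silica lung than in any air lung, and because it holds TATAAA, the rarest of the 3 motifs. It comes from RefSeq, GRCr8, chr1:256518858-256519107, minus strand. Capitals mark 2 matches to TATAAA and 1 to CCAAT, read on the other strand as ATTGG.
Col17a1, before the start: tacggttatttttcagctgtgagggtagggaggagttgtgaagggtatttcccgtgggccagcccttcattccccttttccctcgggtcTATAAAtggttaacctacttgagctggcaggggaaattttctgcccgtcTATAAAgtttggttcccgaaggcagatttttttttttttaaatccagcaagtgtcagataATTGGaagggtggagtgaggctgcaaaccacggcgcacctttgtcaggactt
A match describes the letters and is not a binding site shown by these data.

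Col13a1, another membrane-spanning collagen found at cell contacts, was lower at 1 day. It stood at 228, 236 and 239 CPM in air and 199, 204 and 223 CPM in silica lungs, with no overlap and little spread between air lungs. This was a log2 fold change of -0.18 ± 0.03 (edgeR adjusted p 0.00176) and a 0.883-fold level with a 95% interval from 0.842 to 0.926. At 6 months it was -0.11 ± 0.06 and did not pass, and the difference between the times did not pass either (0.08 ± 0.07, adjusted p 0.669). Col23a1, of the same class, changed by 0.03 ± 0.13 and -0.09 ± 0.09.

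Col8a2, a chain of the short network-forming type VIII collagen of vessels and basement membranes, was the only collagen row called at both times with edgeR. At 1 day it stood at 16.6, 16.9 and 18.4 CPM in air and 12.7, 14.0 and 16.4 CPM in silica lungs, which did not overlap. At 6 months the 5 air lungs had 18.2, 19.6, 18.2, 16.3 and 15.9 CPM and the silica lungs 12.1, 13.2 and 16.4 CPM, with 1 silica lung inside the air range. The log2 fold changes were -0.27 ± 0.07 (adjusted p 0.0225) and -0.32 ± 0.09 (adjusted p 0.0256). Both calls were close to the threshold: the first was lost without silica rat 45 (0.0509), and the second without air rats 49, 51 or 52 or silica rats 59 or 62 (0.0501 to 0.0620). Its partner chain Col8a1 changed by -0.22 ± 0.14 and 0.02 ± 0.12, not called.

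**Figure D3:**
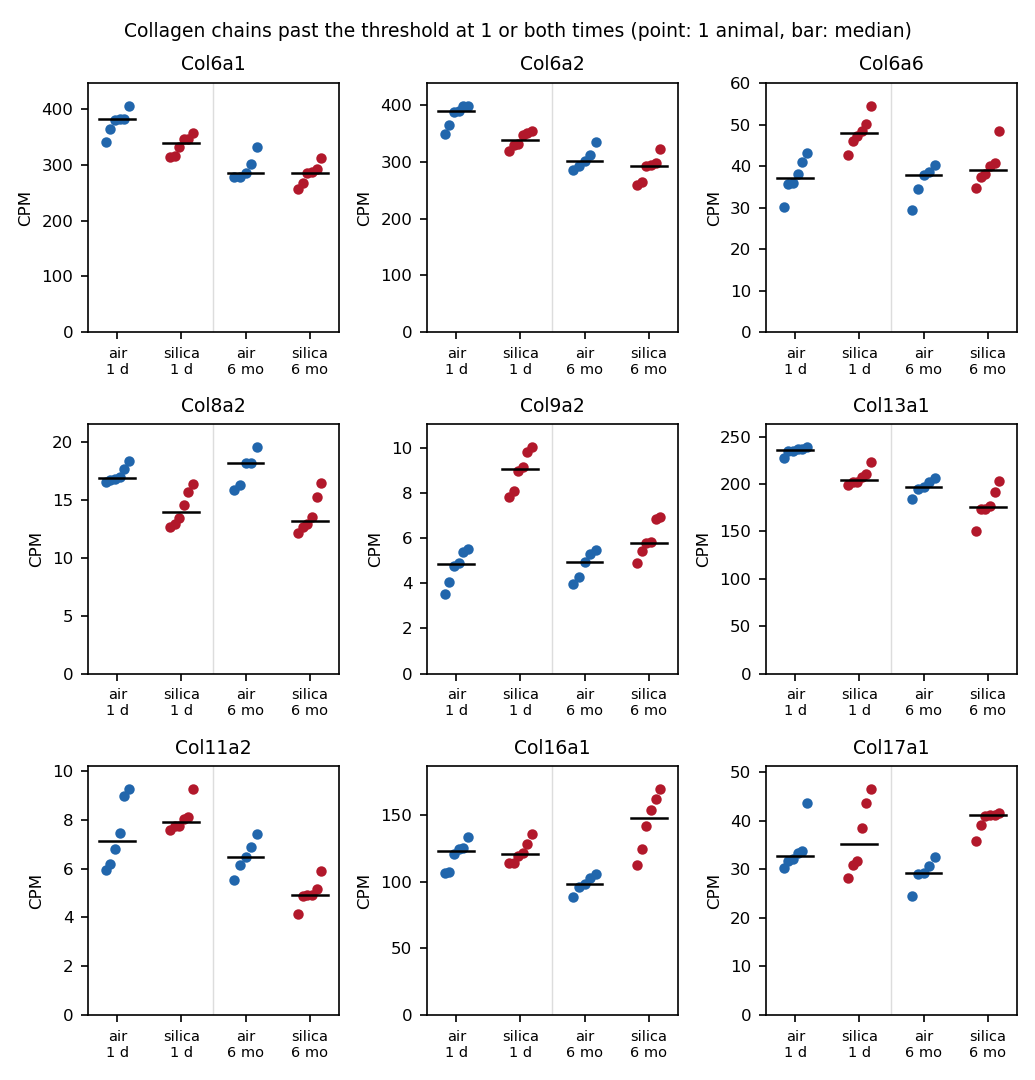
CPM (y axis, from 0) of the 9 collagen chain genes that passed the test at 1 or both times, 1 point per rat and a bar at the median, for air (blue) and silica (red) lungs at 1 day and 6 months. Col9a2 silica lungs at 1 day (7.81 to 10.04 CPM) lie above all air lungs, and Col16a1 and Col17a1 silica lungs do so at 6 months.

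Endothelial markers also moved with silica at both times. At 1 day 4 of 9 and at 6 months 8 of 9 were lower, and their sum ran from 3959 to 4420 CPM (air) and 3607 to 4064 CPM (silica) at 1 day, and from 4163 to 4609 and 3124 to 3839 CPM at 6 months. Among fibroblast markers 1 of 9 was lower at 1 day (Dpt) and 2 of 9 at 6 months (Inmt and Meox2). Their sum ran from 1249 to 1373 CPM (air) and 1115 to 1267 CPM (silica) at 1 day and from 1228 to 1436 and 1059.7 to 1252 CPM at 6 months. Pericyte and smooth muscle markers were lower for 2 of 8 at 1 day (Pdgfrb and Higd1b) and none passed at 6 months, with sums of 630.4 to 756 against 583 to 690.4 CPM and 613 to 738 against 489 to 622 CPM. All 8 had negative log2 fold changes at both times, and with edgeR 7 at 1 day and 4 at 6 months had an unadjusted p under 0.05. Macrophage markers were higher for 3 and lower for 2 of 6 tested at 1 day, and higher for all 6 at 6 months. Their sum ran from 462 to 674 CPM (air) and 821 to 942 CPM (silica) at 1 day and from 559 to 714 and 968 to 1234 CPM at 6 months. Chi3l1 carried the 1-day difference of that sum: without it the median sum was 417 CPM in air and 416 CPM in silica lungs. Itgax and Cd68 were also higher at 1 day (0.55 ± 0.07 and 0.53 ± 0.12), and Fabp4 (-0.82 ± 0.14) and Siglec1 (-0.52 ± 0.16) were lower. At 1 day 5 of 8 alveolar type 1 markers were lower, 2 alveolar type 2 markers were higher and 1 lower, and 1 mesothelial marker (Krt19) and 1 airway marker (Scgb1a1) were lower. At 6 months 1 of 3 tested genes of the bone list (Alpl) was higher and 1 of 3 tested cartilage markers (Sox5) was lower. Alpl had medians of 208 CPM in air and 231 CPM in silica lungs then, out of list sums with medians of 224 and 250 CPM. The bone genes Ibsp (0.817 and 0.894 CPM), Bglap (0.0817 and 0.126 CPM) and Dmp1 (0.0825 and 0.115 CPM) had low medians. Which cells made the RNA of Alpl and Krt19 was not tested. The part of the listed cell types in the results for Col6a1, Col6a2, Col8a2, Col13a1 and Col16a1 was not tested.

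The remaining classes of collagen held no call with edgeR. Col15a1 and Col18a1 encode basement-membrane collagens whose tails are released as peptides that act on vessels. Col15a1 stood at 41.1, 50.2 and 59.3 CPM in air and 47.8, 60.4 and 75.8 CPM in silica lungs at 1 day, a change of 0.26 ± 0.11 (adjusted p 0.127), and changed by 0.19 ± 0.16 at 6 months. Col18a1 changed by -0.04 ± 0.04 at both times. Col7a1, the anchoring fibril under stratified epithelium, changed by -0.01 ± 0.08 and 0.09 ± 0.11.

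The 10 rows not tested at 1 day were Col2a1, Col9a1, Col9a3, Col10a1, Col11a1, Col19a1, Col22a1, Col25a1, Col26a1 and Col28a1, and Col24a1 joined them at 6 months. Col10a1 and Col25a1, known from growth plate cartilage and from nerve cells, stayed at or below the limit of a 0 count in all 23 libraries. Col11a1 was low but stood at 0.166, 0.240 and 0.306 CPM in air and 0.205, 0.529 and 0.702 CPM in silica lungs at 1 day, and it was called higher when no filter on low counts was used. These are levels of 2 to 11 counts a library, and the groups overlapped.

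Chains that share a protein, a fibril or a stretch of DNA were compared from rat to rat, over 23 lungs in 8 pairs. No pair without such a tie was correlated, so whether tied chains follow each other more closely than other chains was not tested. Col4a1 and Col5a2, without such a tie, were both lowest at 1 day in silica rats 43 (773 and 269 CPM) and 48 (727 and 255 CPM). Values were deviations of log2(CPM + 0.5) from the group mean, and 7 pairs had counts enough. All values of 1 library share its depth and scaling. Col4a1 and Col4a2 followed each other most closely, with Pearson r = 0.95 and Spearman rho = 0.94 (two-sided permutation within groups, Benjamini-Hochberg adjusted p 3.5e-05 for both, from a raw p of 1e-05, the smallest these permutations can give). Without the 2 lungs farthest from the median of Col4a1, r was 0.92, and within times it was 0.96 and 0.95. Col6a1 and Col6a2 gave r = 0.92 and rho = 0.89 (adjusted permutation p 3.5e-05 for both), r = 0.89 without 2 lungs, and 0.95 and 0.91 within times.

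The fibrillar pairs followed each other less closely. Col5a1 and Col5a2 gave r = 0.76 and rho = 0.73 (adjusted permutation p 1.17e-04 and 6.77e-04), r = 0.64 without 2 lungs, and 0.71 and 0.81 within times. At 6 months rho was 0.58 and did not pass (adjusted permutation p 0.134), and r fell to 0.30 without 2 lungs, so that the 6-month relation rested on them. Col1a1 and the summed Col1a2 gave r = 0.70 and rho = 0.67 (adjusted permutation p 0.0029 and 0.00486), and r = 0.65 without 2 lungs. Within times, r was 0.89 at 1 day and 0.44 at 6 months, where it did not pass (adjusted permutation p 0.274). Col1a1 and Col3a1 gave r = 0.68 and rho = 0.62 (adjusted permutation p 0.00345 and 0.00685), r = 0.61 without 2 lungs, 0.91 at 1 day and 0.30 at 6 months (adjusted permutation p 0.439), where it was 0.49 without 2 lungs. These pairs thus did not pass within the 11 lungs of 6 months, and whether the relation differed between the times was not tested.

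Col4a3 and Col4a4, also head to head, gave r = 0.81 and rho = 0.68 (adjusted permutation p 4.38e-04 and 0.00203), and r = 0.64 without 2 lungs. Within 1 day r was 0.83 but rho only 0.39, and r fell to 0.11 without 2 lungs, so that the 1-day relation rested on them. At 6 months r was 0.79 (adjusted permutation p 0.0124) and rho 0.74, which did not pass (0.0593). Col8a1 and Col8a2 gave r = -0.15 and rho = -0.19 (adjusted permutation p 0.553 and 0.426), r = -0.17 without 2 lungs, and -0.35 and 0.07 within times. Col2a1 and Col9a1 had too few counts for a comparison.

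**Figure D4:**
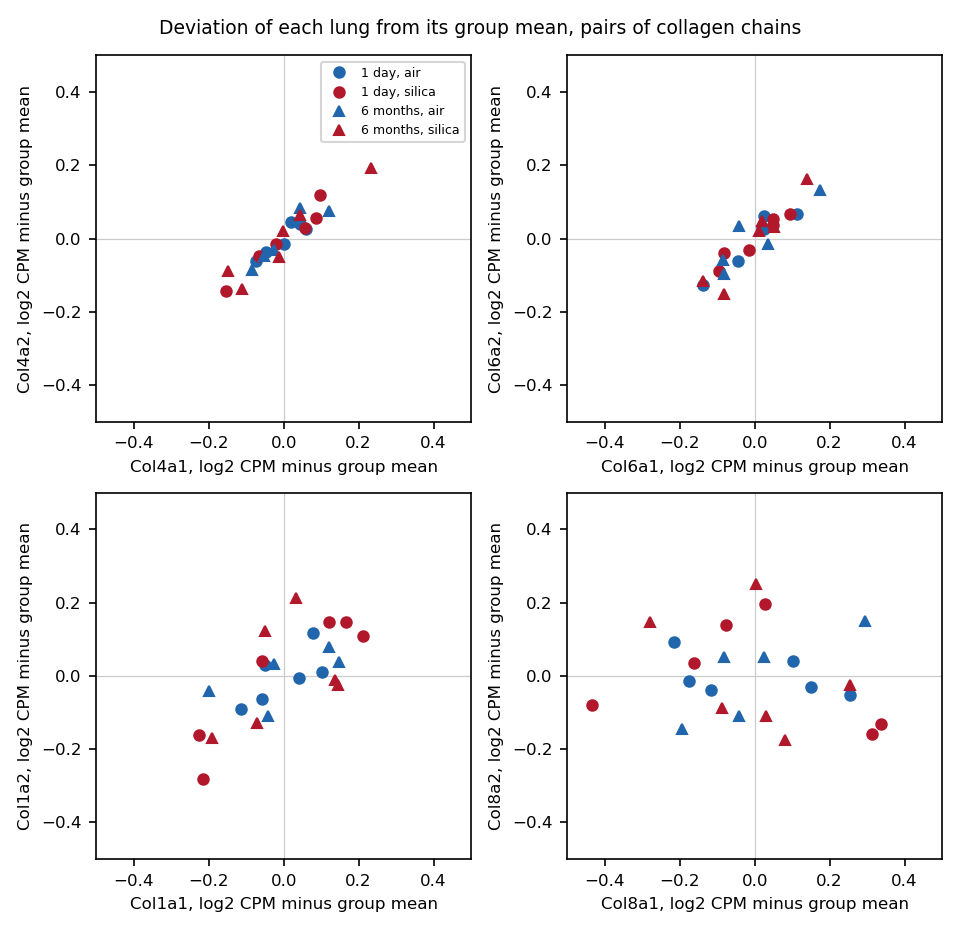
Deviation of each lung from its group mean in log2 CPM for 4 pairs of collagen chains (x and y axes), circles for 1 day, triangles for 6 months, blue for air and red for silica. Col4a1 with Col4a2 (r = 0.95) and Col6a1 with Col6a2 (r = 0.92) lie along a line, Col1a1 with Col1a2 (r = 0.70) less so, and Col8a1 with Col8a2 (r = -0.15) form no line.

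The genes that make, cut, bind and break down collagen were taken from lists and counted in the same tests. Of 19 tested genes of collagen synthesis and folding, 2 were higher at 1 day and none lower. These were P4hb, a subunit of the prolyl hydroxylase that stabilises the helix (0.18 ± 0.04), and Sec24d, of the coat that carries procollagen out of the endoplasmic reticulum (0.22 ± 0.06). At 6 months 4 were higher and 2 lower. P4hb stood at 498.9 to 522 CPM in air and 559.5 to 618 CPM in silica lungs then (0.22 ± 0.04, edgeR adjusted p 0.00222), and Sec24d (0.23 ± 0.06), the collagen glycosyltransferase Colgalt1 (0.16 ± 0.04) and the lysyl hydroxylase Plod3 (0.11 ± 0.03) were also higher. P4ha2, a catalytic partner of P4hb, was lower (-0.27 ± 0.06), and so was Serpinh1, the collagen chaperone (-0.13 ± 0.04). P4hb and P4ha2 thus moved in opposite directions, but the other catalytic partners, P4ha1 and P4ha3, were not called. P4ha1 had median levels of 156 CPM in air and 141 CPM in silica lungs at 6 months, and P4ha3 19.8 and 20.2 CPM. Whether the amount of the enzyme changed was not tested. The list's median change at 6 months was 0.0161 beside -0.0080 for all genes.

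Of 13 genes that trim procollagen or cross-link it, 1 was lower at 1 day, the transglutaminase Tgm2 (-0.16 ± 0.04), and 1 was higher at 6 months, the procollagen C-proteinase Bmp1 (0.28 ± 0.05). The lysyl oxidase Lox, which cross-links fibrils, stood at 82.7 to 113 CPM in air and 79.9 to 113 CPM in silica lungs at 6 months, without a call. Of 8 tested collagen receptors, 1 was higher at 1 day (Ddr1, a collagen-binding tyrosine kinase, 0.21 ± 0.05). At 6 months Mrc1, a macrophage receptor that takes up collagen, was higher (0.42 ± 0.07) and Ddr2 was lower (-0.21 ± 0.05).

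Of 13 tested genes of collagen breakdown, 3 were higher and 1 lower at 1 day, and 4 were higher and 1 lower at 6 months. Mmp12, the macrophage elastase, stood at 4.23, 11.3 and 18.6 CPM in air and 25.3, 29.6 and 33.2 CPM in silica lungs at 1 day (1.32 ± 0.23, edgeR adjusted p 0.00158). At 6 months its air lungs lay between 4.63 and 13.9 CPM and its silica lungs between 26.03 and 66.0 CPM (2.23 ± 0.28, adjusted p 3.22e-04). The groups were apart at both times. The neutrophil collagenase Mmp8 (0.98 ± 0.21) and the inhibitor Timp1 (0.22 ± 0.06) were higher and the inhibitor Timp2 (-0.12 ± 0.03) lower at 1 day. At 6 months the collagen-degrading cathepsin Ctsk (0.86 ± 0.15), the membrane collagenase Mmp14 (0.52 ± 0.07) and the lysosomal protease Ctsb (0.49 ± 0.07) were higher and Mmp16 lower (-0.24 ± 0.05).

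Of 17 tested genes that bind fibrils or lie beside them, 1 was higher and 5 lower at 1 day, and 1 was higher and 3 lower at 6 months. Lum, a proteoglycan that spaces fibrils, stood at 14.7, 16.9 and 19.5 CPM in air and 10.4, 12.2 and 15.3 CPM in silica lungs at 1 day (-0.41 ± 0.11), and was -0.40 ± 0.10 at 6 months. Ogn, of the same family, stood on 2 gene rows, of which 1 was lower at both times (-0.30 ± 0.09 and -0.20 ± 0.04) and the other was not called (0.44 ± 0.50 and -0.73 ± 0.31). Summed, Ogn was lower at both times, with -0.21 ± 0.04 at 1 day and -0.26 ± 0.05 at 6 months (edgeR adjusted p 0.00433 and 0.00334). Dcn was lower at 6 months (-0.53 ± 0.13). Elastin (Eln, -0.28 ± 0.08), Postn (-0.15 ± 0.04) and Prelp (-0.15 ± 0.04) were lower at 1 day. Fibronectin (Fn1) was higher at 1 day (0.24 ± 0.04), and tenascin C (Tnc) at 6 months (0.36 ± 0.11). Of the laminins and other basement membrane partners, 1 of 14 was lower at 1 day (Lamb2, -0.09 ± 0.03) and none of 13 passed at 6 months with edgeR, with 1 at an unadjusted p under 0.05.

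Myofibroblasts are the contractile cells that lay down scar collagen. Of 7 tested myofibroblast markers, 1 was higher at 1 day and 3 at 6 months, and 1 (Postn) was lower at 1 day. Cthrc1, a secreted marker of collagen-producing fibroblasts, stood at 2.99, 3.74 and 4.33 CPM in air and 5.23, 5.82 and 6.19 CPM in silica lungs at 1 day (0.65 ± 0.11, edgeR adjusted p 0.00101), with no overlap. At 6 months it was 0.68 ± 0.16 (adjusted p 0.0143), with 2.20 to 3.84 CPM in air and 3.81 to 5.80 CPM in silica lungs. Runx1 (0.22 ± 0.07) and Tnc were the other genes of the list higher at 6 months. Which cells made the RNA of these genes was not tested. The contractile genes Acta2 (-0.36 ± 0.13, adjusted p 0.0710) and Tagln (-0.26 ± 0.11, adjusted p 0.118) and the matrix gene Postn (-0.12 ± 0.05, adjusted p 0.149) had negative values there that did not pass. Postn made up 53.9 to 67.0% of the markers' sum in each lung, and that sum ran from 983 to 1055 CPM against 866 to 994 CPM at 1 day and from 869.8 to 933 CPM against 769 to 874 CPM at 6 months.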

How the data were processed

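Per the labels' protocols, lung RNA was extracted with a kit for fibrous tissue and made into stranded libraries of polyadenylated RNA. Salmon 1.10.1 and STAR 2.6.1d are named in the submitters' processing notes, as are Trim Galore 0.6.7, cutadapt 3.4 and bcl2fastq 2.19. Those notes give the build as Rnor_6.0 and assign the tools no roles. The deposited lung tables, 1 for each time, hold estimated counts (expected counts) per gene that are not normalized. They were rounded to whole numbers here. All table columns matched a sample title. Estimated counts split reads between similar or overlapping gene models, so Col1a2 was also summed.

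Groups followed the labels. Silica was tested against air within each table by edgeR 4.0.16 (R 4.3.3): a low-count filter (filterByExpr, minimum count 10), TMM scaling, a two-sided quasi-likelihood test, and Benjamini-Hochberg adjustment over all genes tested, threshold 0.05. The time difference was an interaction over 4 groups. SEs of fold changes were derived from the F statistic, and intervals are 95%. CPM levels use plain library totals. Pair correlations used log2(CPM + 0.5) less group means and 100000 permutations within groups. Libraries of a group differed beyond sampling noise, with chi-square per degree of freedom from 4.37 to 13.5 over 55 pairs. Floors and p-values cover counting error and the spread between these rats only. On simulated counts at 1 day (15203 genes), 71% of changes of 0.5 and 89.5% of changes of 1 (log2) were recovered. At 6 months (15178 genes) the shares were 56.6% and 87.5%. False calls made up 3.70% of calls at 1 day and 2.10% at 6 months. Smaller changes were not simulated, and the median absolute log2 fold change of tested collagen rows was 0.098 at 1 day and 0.076 at 6 months. Recovery of changes that small is therefore not known.

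Alternatives were DESeq2 1.42.0, robust dispersion, no filter or a minimum count of 50, upper-quartile or RLE factors, summed gene models, all 4 lung groups in 1 model, a pseudocount of 5 for the pairs, and leaving out each library. The collagen genes and the other lists were chosen with earlier results of these data known. Collagen genes past the threshold in any test and Col1a1, Col1a2, Col2a1, Col3a1, Col4a1, Col4a2, Col5a1, Col6a1, Col8a1, Col15a1 and Col18a1 were named by rule. Up to 4 called genes of smallest p were named from each other list, and further names were added after their values were seen. Genes of the lists not found by name were not analysed here. Promoter sequences came from RefSeq's table for GRCr8, in which 44 of 44 collagen names matched a gene and 35 a promoter.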

Additional observations from a re-analysis of the deposited data

Results flagged for a closer look

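In silica lungs at 1 day, the highest Col11a2 level, 9.28 CPM in rat 45, lay far from the nearest of the other lungs, at 8.12 CPM. In air lungs at 1 day, the highest Col17a1 level, 43.6 CPM in rat 38, lay far from the nearest, at 33.8 CPM. Each gap was a large part of the range of its group. Among 76 groups examined in this way 2 stood out, and chance alone gives about 1 in 20. Neither gene was called at 1 day.

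The silica effect on Col16a1 differed between the times, by 0.56 on the log2 scale (edgeR interaction test, adjusted p 0.0188), with every silica lung above every air lung at 6 months and overlapping groups at 1 day.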

How the results depend on the processing

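Counts of collagen rows called stayed within 1.5 times of those reported under each alternative, with these exceptions. The 2 rows lower at 6 months became 1 without the filter on low counts (Col11a2 was lost) and ranged from 0 to 2 when 1 library was left out. It was 0 without air rat 49 or 51 or silica rat 59 or 62, and 1 without air rat 52, 53 or 54 or silica rat 58, 60 or 64. The rows whose effect was lower at 6 months than at 1 day went from 0 to 1 with DESeq2 (Col9a2). Leaving out 1 library gave 2 to 3 rows higher and 3 to 5 lower at 1 day, 2 to 3 higher at 6 months, and 1 higher for the time difference. Within the 6-month table the correlations of Col1a1 with Col1a2 and Col3a1 fell to 0.44 and 0.30 and no longer passed. By rho, Col5a1 with Col5a2 at 6 months (adjusted permutation p 0.134) and Col4a3 with Col4a4 at 1 day (0.26) and 6 months (0.0593) did not pass either.

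Of 226 alternative values for the 11 called gene results, 208 kept the call and 18 lost it. Of 1082 for the 46 uncalled results of genes named by rule, 2 gained one, both for Col9a2. Other collagen rows are not in these counts. Among them, at 1 day, Col5a3 passed with DESeq2 and Col11a1 passed without the filter on low counts. None changed sign among called results. The 10 rows left untested at 1 day had too few counts at this depth. No paired analysis was possible because the air and silica lungs compared share no animal numbers. The cause of each lost or gained call was not tested. Fits that left out 1 library also had fewer rats.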
